A study of Mus musculus with 4 samples.

Results

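The transcripts described here are those of 50 genes of the cell division cycle in the embryonic mouse retina, 26 that act in DNA replication and the G1-to-S transition and 24 that act in mitosis. They were taken by gene symbol from a fixed list, and all 50 were found among the 25239 gene IDs of the deposited tables. RNA of dissected E13.5 retina gave 4 libraries. Of these, 2 carry the label control and 2 the label Isl1cKO, a conditional knockout of Isl1, which encodes a LIM-homeodomain transcription factor of retinal neurons. The series set out to describe how transcript levels change when Isl1 is lost. The Cre driver, the alleles carried by the controls, the mouse strain, and whether a library is 1 embryo or a pool are not given in the sources used here. P-values therefore measure only the spread between these libraries, which may be technical.

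At this age the retina is largely a neuroepithelium of dividing progenitor cells, some of which leave the cycle to become ganglion cells, cones, horizontal cells and amacrine cells. A dividing cell licenses its origins by loading the ring of MCM2 to MCM7 onto DNA in G1, fires them in S phase with CDC45 and the GINS complex, and copies DNA with polymerases clamped by PCNA. E2F factors drive much of the S-phase set. The mitotic set, which includes CDK1 with its B-type cyclins, the spindle kinases and the kinetochore proteins, is transcribed later in the cycle and several of its proteins are removed by the anaphase-promoting complex.

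Short motifs in the promoters, which the choice of genes did not use, were counted in both groups as a description, with no test. RefSeq windows from 250 bases before to 50 bases after a transcription start (build GRCm38.p6) were found for 42 of the 50 genes, 21 in each group, and searched on both strands. The cell cycle homology region, or CHR, with the letters TTTGAA, is an element of promoters that are active late in the cycle. It was present in 15 of the 21 mitotic genes and in 4 of the 21 replication genes, against 13.8% of the 10831 tested genes with a window and 20.2% of all 27025 genes with one. The CCAAT box (CCAAT) was present in 18 of 21 mitotic and 16 of 21 replication genes, against 43.4% of tested genes. Together, CHR and CCAAT stood in 15 of 21 mitotic and 4 of 21 replication genes, against 5.85% of tested genes. The E2F core (GGCGGGAA) was present in 4 of 21 replication genes, which were Mcm3, Prim1, Rrm1 and Uhrf1, and in 0 of 21 mitotic genes, against 4.75% of tested genes. A match of letters is a description and not a binding site.

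The 150 bases before the start are shown, 5′ to 3′ along the gene, for 2 replication genes with the E2F core, for E2f8, whose transcript differed most between the groups among the 50, and for 3 mitotic genes with the CHR. Capitals mark the E2F core, the CHR and the CCAAT box on either strand.
Rrm1: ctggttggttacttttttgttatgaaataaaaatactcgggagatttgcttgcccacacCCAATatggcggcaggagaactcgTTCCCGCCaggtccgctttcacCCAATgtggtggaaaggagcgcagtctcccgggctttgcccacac
Prim1: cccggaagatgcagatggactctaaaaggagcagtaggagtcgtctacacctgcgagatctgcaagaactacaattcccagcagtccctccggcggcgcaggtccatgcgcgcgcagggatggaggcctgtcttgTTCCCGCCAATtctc
E2f8: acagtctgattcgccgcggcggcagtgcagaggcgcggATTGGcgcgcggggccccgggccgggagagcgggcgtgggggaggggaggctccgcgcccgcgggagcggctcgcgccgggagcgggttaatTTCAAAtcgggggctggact
Cdk1: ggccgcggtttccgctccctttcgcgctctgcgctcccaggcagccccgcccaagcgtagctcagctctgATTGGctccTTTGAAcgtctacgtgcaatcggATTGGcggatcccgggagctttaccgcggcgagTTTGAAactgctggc
Cdc20: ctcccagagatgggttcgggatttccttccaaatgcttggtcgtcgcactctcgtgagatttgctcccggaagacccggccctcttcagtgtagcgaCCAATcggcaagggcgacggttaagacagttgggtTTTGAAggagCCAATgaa
Mki67: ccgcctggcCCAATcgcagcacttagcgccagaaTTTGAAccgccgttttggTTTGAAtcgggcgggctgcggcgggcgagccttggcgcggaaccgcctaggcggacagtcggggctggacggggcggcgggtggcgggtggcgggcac
These stretches lie at chr7:102441545-102441694, plus strand (Rrm1), chr10:128015065-128015214, plus strand (Prim1), chr7:48881597-48881746, minus strand (E2f8), chr10:69352913-69353062, minus strand (Cdk1), chr4:118437344-118437493, minus strand (Cdc20) and chr7:135716380-135716529, minus strand (Mki67). In Prim1 the E2F core overlaps the CCAAT box, so that the capitals form 1 run. E2f8 holds a CHR, read on the reverse strand from 20 bases before the start, and a CCAAT box. It is 1 of the 4 replication genes with both in a window, beside Mcm2, Cdc45 and E2f2. Cdk1 and Mki67 each hold 2 copies of the CHR letters in the stretch.

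The libraries held between 12.6 and 14.3 gigabases of aligned sequence, derived from the ratio of coverage to FPKM, and the lowest was Isl1cKO replicate 2. Levels are given in TPM, which are scaled to transcript length and to a fixed sum per library, so they give shares of a library and not amounts per cell. Isl1 itself stood at 242 and 201 TPM in control libraries, against 321 and 223 TPM in Isl1cKO libraries, so it was not lower in them. The deleted exons are not given in the sources used here, and a value for the whole gene does not show whether they are missing. Each direction below therefore rests on the labels, and Isl1cKO below stands for the libraries so labelled. The retinal progenitor genes Sox2 and Pax6 were abundant, between 281 and 610 TPM in every library. Over all genes tested, Isl1cKO replicate 2 was the lowest of the 4 libraries in 46.3%, and in 17 of the 50 genes described here. Pearson's r of log2(TPM + 1) between it and the controls was 0.978 and 0.981, beside 0.993 between the controls.

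None of the 50 genes passed the test for a difference between the groups, and most intervals were narrow. Differences were fitted with limma on log2(TPM + 1) across the 13984 genes with at least 1 TPM in at least 2 libraries, with Benjamini-Hochberg adjustment and a threshold of 0.05. All 50 passed that filter in every library, and 0 of 50 were called, against 0.493% of all genes tested (69 genes). Calls lower in Isl1cKO made up 0.465% of all genes tested and calls higher 0.0286%. With the replicate number as a block 0 of 50 were called, against 1.90% of all genes. The smallest adjusted p-value among them was 0.368. At an unadjusted p-value under 0.05 in limma there was 1, E2f8, against 12.1% of all genes tested. The 95% interval of the difference lay within 0.5 log2 units either side of 0 for 45 of the 50 genes, against 66.9% of genes tested, and within 1 log2 unit, a doubling or halving, for all 50, against 92.2%. The lowest bound was -0.76, for Cenpf, and the highest was 0.36. The shares within 0.5 and 1 were not matched for level. The 50 genes lay at 21.3 TPM or above, and the genes tested reach down to the filter. In the lists of other replication and other mitotic genes below, 48 of 48 and 43 of 48 intervals lay within 0.5.

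**Figure D1:**
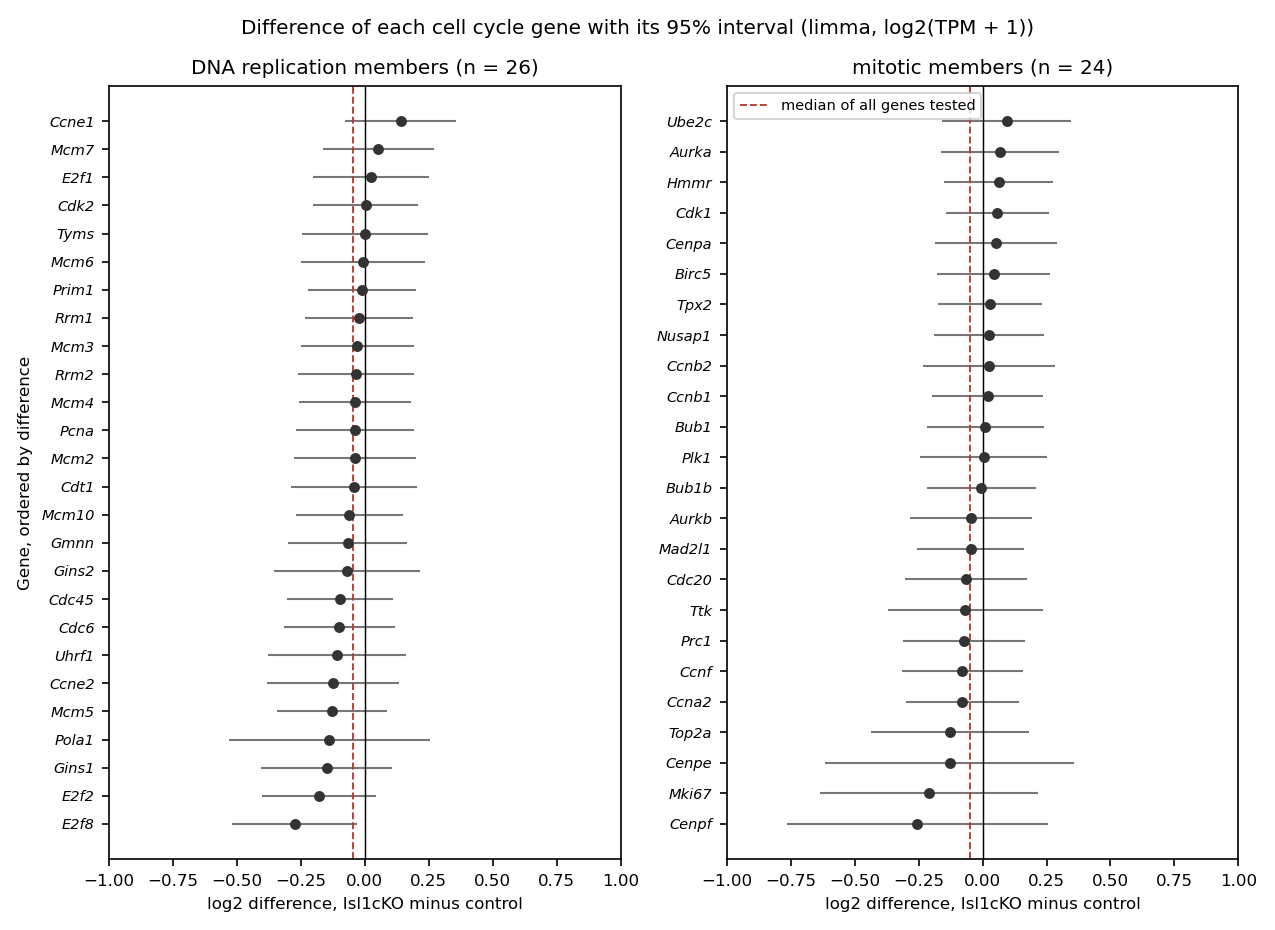
Log2 difference (horizontal axis, Isl1cKO minus control, on the log2(TPM + 1) scale) of each replication gene (left) and mitotic gene (right). Points are limma estimates from 2 libraries a group, bars their 95% intervals, and the dashed line the median of all 13984 genes tested, -0.048. E2f8 has the 1 interval that does not reach 0.

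As a group, the replication genes had a median log2 difference of -0.041 and the mitotic genes of -0.00032, beside -0.048 over all genes tested. Among replication genes 21 of 26 estimates were below 0, and among mitotic genes 12 of 24, beside 63.8% of all genes. These signs depend on scaling. When libraries were scaled by median ratios the medians became 0.015 and 0.056, beside 0.0053 over all genes, and 12 of 26 and 9 of 24 estimates were below 0. In 10 replication genes and 7 mitotic genes the groups did not overlap, beside 44.9% of genes tested. Of the replication genes, Mcm5, Mcm10, Cdc6, Gins1, Cdc45, E2f2, E2f8 and Ccne2 lay lower in both Isl1cKO libraries than in both controls, and Mcm7 and Ccne1 lay higher. Of the mitotic genes, Ccna2, Ccnf and Mad2l1 lay lower in both, and Cdk1, Ube2c, Tpx2 and Hmmr higher. Over all genes tested 30.0% lay lower in both and 14.9% higher.

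Summed over the 26 replication genes, the share of TPM was 0.415% and 0.408% in control libraries, against 0.396% and 0.404% in Isl1cKO libraries. Summed over the 24 mitotic genes it was 0.406% and 0.403%, against 0.402% and 0.391%. On this scale both sums were lower in each Isl1cKO library than in either control, and each Isl1cKO sum lay less than 4% below the control mean, although the medians change sign under median-ratio scaling as given above. The order of the 50 levels was nearly the same in every library. Across the 50 genes, which are not independent replicates, Pearson's r of log2(TPM + 1) between libraries ranged from 0.989 to 0.997, and the 3 lowest values were those with Isl1cKO replicate 2.

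**Figure D2:**
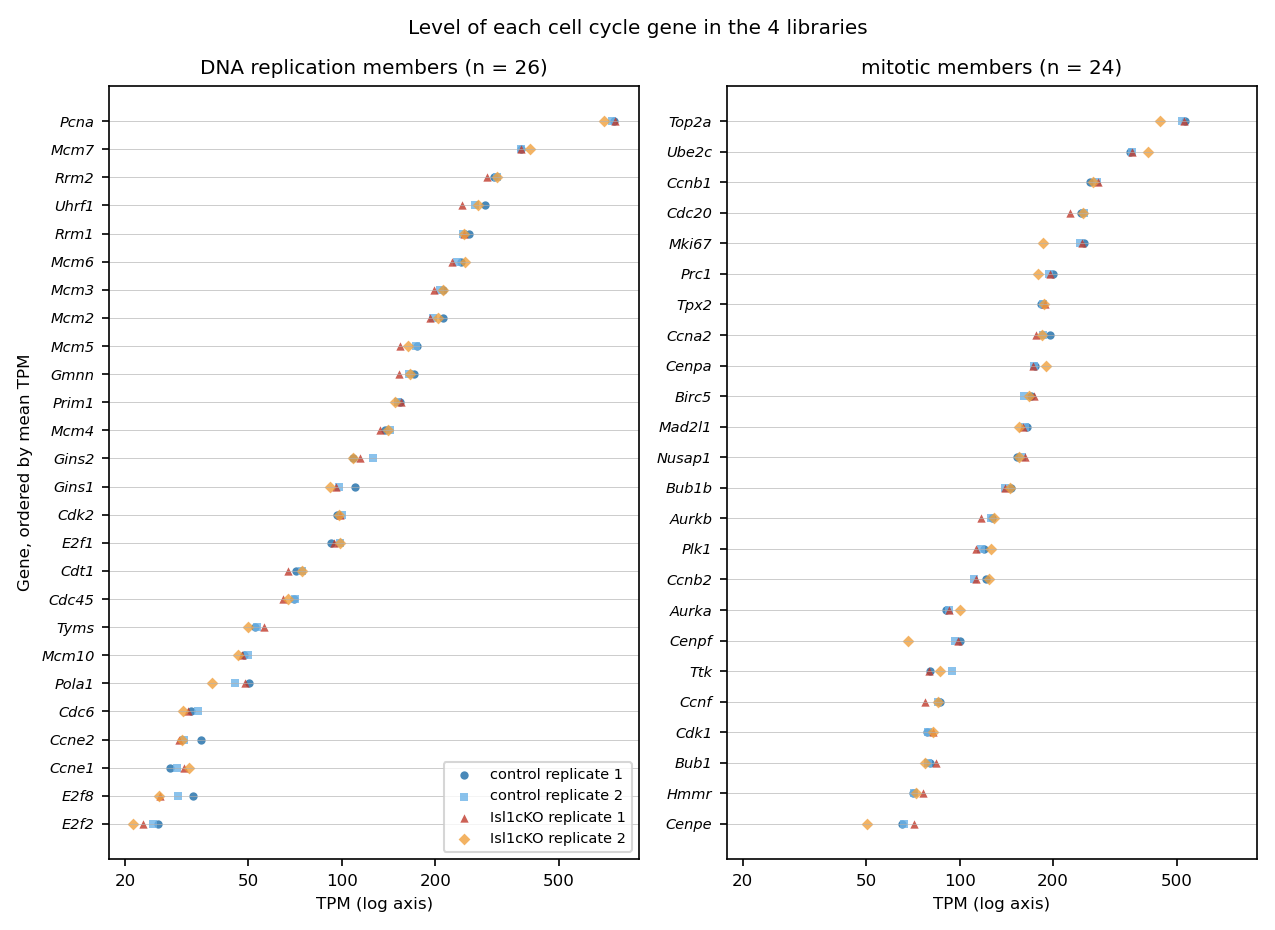
TPM (log axis) of each replication gene (left) and mitotic gene (right), ordered by mean level, with 1 symbol for each of the 4 libraries. The symbols of most genes lie on top of each other, and the diamonds of Isl1cKO replicate 2 lie to the left in Cenpf, Cenpe, Mki67 and Top2a.

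The 6 subunits of the MCM ring, the helicase that opens DNA at the fork, were all abundant. Mcm7 stood at 378 and 377 TPM in control libraries, against 379 and 404 TPM in Isl1cKO libraries, a log2 difference of 0.053 (SE 0.0815), which was 0.0079 without Isl1cKO replicate 2 and 0.098 without replicate 1. Mcm6 stood at 242 and 235 TPM in control libraries, against 226 and 249 TPM in Isl1cKO libraries, and its groups overlapped. These are the highest of the ring in every library, although the protein ring holds its subunits in equal numbers. Mcm2 stood at 212 and 196 TPM in control libraries, against 192 and 205 TPM in Isl1cKO libraries. Mcm3 stood at 211 and 206 TPM in control libraries, against 198 and 212 TPM in Isl1cKO libraries. Neither separated the groups, and Mcm2 and Mcm3 changed places in the order between control replicate 1 and the other libraries. Mcm5 stood at 175 and 173 TPM in control libraries, against 154 and 164 TPM in Isl1cKO libraries, with a log2 difference of -0.13 (SE 0.081, limma adjusted p-value 0.620). Mcm4, the lowest of the ring in every library, stood at 138 and 143 TPM in control libraries, against 133 and 141 TPM in Isl1cKO libraries. The 6 summed to 1355 and 1329 TPM in control libraries and 1282 and 1373 TPM in Isl1cKO libraries, so the sum overlapped between the groups. The ratio of Mcm7 to Mcm4 was 2.74 and 2.64 in the controls and 2.86 and 2.87 in Isl1cKO.

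Around the ring, none of the loaders, activators and replication enzymes passed the test. Cdc6 and Cdt1, which load MCM, and Gmnn, whose product geminin restrains Cdt1, had log2 differences of -0.099, -0.043 and -0.068, each with an SE of 0.081 to 0.092. Cdc45 and the GINS subunits Gins1 and Gins2, which join MCM in the active helicase, had differences of -0.097, -0.15 and -0.069. Gins1 stood at 110 and 98.1 TPM in control libraries, against 95.8 and 91.4 TPM in Isl1cKO libraries (limma adjusted p-value 0.627). The gap between its groups was smaller than the gap between its controls, and its difference was -0.066 without control replicate 1 and -0.23 without control replicate 2. The clamp Pcna was the most abundant of the 50, at 755 and 741 TPM in control libraries, against 760 and 698 TPM in Isl1cKO. The nucleotide enzymes Rrm1, Rrm2 and Tyms, which make deoxyribonucleotides, had differences between -0.035 and 0.00021, and the primase gene Prim1 one of -0.012. Uhrf1, which guides maintenance methylation behind the fork, had a difference of -0.11 (SE 0.10).

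The E2F factors and E-type cyclins, which govern entry into S phase, included the estimates farthest below and farthest above 0 among the replication genes, those of E2f8 and Ccne1. E2f8 (chromosome 7, 48866429 to 48881596), an atypical E2F that represses E2F targets, stood at 33.2 and 29.7 TPM in the controls. It stood at 25.9 and 25.7 TPM in Isl1cKO, a log2 difference of -0.27 (SE 0.092, 95% interval -0.52 to -0.029), limma adjusted p-value 0.368. Its groups did not overlap, and the estimate ran from -0.35 to -0.20 as each library was left out in turn. E2f2, an activator, stood at 25.5 and 24.6 TPM in control libraries, against 22.8 and 21.3 TPM in Isl1cKO libraries, with a difference of -0.18 (SE 0.084, adjusted p-value 0.491). E2f1, the other activator in the list, stood at 91.9 and 98.3 TPM in control libraries, against 94.6 and 99.0 TPM in Isl1cKO libraries, so its groups overlapped.

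Ccne1 and Ccne2 encode the cyclins that activate CDK2 at the start of S phase, and their estimates had opposite signs. Ccne1 stood at 27.9 and 29.3 TPM in control libraries, against 31.0 and 32.3 TPM in Isl1cKO libraries, a difference of 0.14 (SE 0.081, adjusted p-value 0.585). It was the highest estimate of the 50. Ccne2 stood at 35.1 and 30.9 TPM in control libraries, against 29.9 and 30.4 TPM in Isl1cKO libraries, a difference of -0.12 (SE 0.097, adjusted p-value 0.688). Without control replicate 1 the difference of Ccne2 was -0.036, and without control replicate 2 it was -0.21. Their partner Cdk2 lay between 96.4 and 99.8 TPM in all 4 libraries.

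Among mitotic genes, the kinases and cyclins of mitotic entry lay close together in the 4 libraries, and none passed the test. Cdk1 stood at 78.5 and 79.2 TPM in control libraries, against 81.8 and 82.3 TPM in Isl1cKO libraries, a log2 difference of 0.058 (SE 0.076). Its cyclins Ccnb1 and Ccnb2 had differences of 0.020 and 0.025, and Ccna2 one of -0.080. Ccna2 stood at 196 and 186 TPM in control libraries, against 177 and 184 TPM in Isl1cKO libraries, and Ccnf, which encodes a cyclin-like subunit of a ubiquitin ligase, at 86.2 and 85.2 against 77.2 and 85.1 TPM. For both, the libraries labelled Isl1cKO were lower than the controls by a margin smaller than the spread within a group. The difference of Ccna2 came to -0.041 with control replicate 1 left out and to -0.050 with Isl1cKO replicate 1 left out. That of Ccnf, -0.079 over all libraries, came to -0.0090 with Isl1cKO replicate 1 left out and to -0.15 with replicate 2 left out. The mitotic kinases Plk1, Aurka and Aurkb had differences of 0.0039, 0.069 and -0.046. Birc5, which encodes survivin and acts with Aurora B in the chromosomal passenger complex, had a difference of 0.043.

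The spindle checkpoint, which holds anaphase until chromosomes are attached, was represented by Bub1, Bub1b, Mad2l1 and Ttk, with differences between -0.067 and 0.010. Cdc20, the checkpoint's target and an activator of the anaphase-promoting complex, stood at 247 and 252 TPM in control libraries, against 227 and 250 TPM in Isl1cKO libraries. Ube2c, the ubiquitin-conjugating enzyme of that complex, stood at 355 and 358 TPM in control libraries, against 359 and 404 TPM in Isl1cKO libraries, a difference of 0.094 (SE 0.095, adjusted p-value 0.760). That value rests on Isl1cKO replicate 2, without which it was 0.0081, and was 0.18 without Isl1cKO replicate 1. The spindle genes Tpx2, Nusap1, Prc1 and Hmmr had differences between -0.073 and 0.062, and Cenpa, the centromeric histone variant, one of 0.053.

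The 4 mitotic genes with the lowest estimates were lower in 1 library only. Cenpf (chromosome 1, 189640614 to 189688086), which encodes a large kinetochore protein, stood at 99.98 and 96.3 TPM in control libraries, against 98.5 and 68.3 TPM in Isl1cKO libraries (replicates 1 and 2). Mki67 (chromosome 7, 135689788 to 135716379), the proliferation antigen Ki-67, stood at 251 and 244 TPM in control libraries, against 247 and 185 TPM in Isl1cKO libraries. In each of the 4 genes Isl1cKO replicate 1 lay above the lower control, and replicate 2 lay below all other libraries. Top2a, the topoisomerase that untangles sister DNA, stood at 534 and 521 TPM in control libraries, against 529 and 441 TPM in Isl1cKO libraries. Cenpe, a kinetochore motor, stood at 65.1 and 66.3 TPM in control libraries, against 71.4 and 50.4 TPM in Isl1cKO libraries. The differences of Cenpf, Mki67, Top2a and Cenpe were -0.26 (SE 0.19), -0.21 (SE 0.16), -0.13 (SE 0.12) and -0.13 (SE 0.18). Their adjusted p-values in limma were 0.679, 0.685, 0.736 and 0.826. Without Isl1cKO replicate 2 they were 0.0055, 0.00016, 0.0033 and 0.12, and without Isl1cKO replicate 1 they were -0.52, -0.42, -0.26 and -0.38.

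These 4 are among the longest mitotic transcripts. The longest annotated transcripts (GENCODE M21) of Cenpf, Mki67, Cenpe and Top2a have 11130, 10061, 7910 and 5221 bases, beside a range of 1531 to 11130 over the 24 mitotic genes and of 1087 to 5475 over the 26 replication genes. Over the 24 mitotic genes, the level in Isl1cKO replicate 2 minus the mean of the other 3 libraries correlated with log2 length at a Pearson's r of -0.83 and a Spearman's rho of -0.66. Over the 26 replication genes r was -0.24 and rho -0.33, and over the 13684 tested genes with a length r was -0.049 and rho -0.21. These points share the same libraries. The mitotic medians showed no steady fall up to 6000 bases. They were 0.084 for 4 genes of up to 2000 bases, -0.0081 for 12 of up to 4000 and 0.025 for 4 of up to 6000. They were -0.24 for 2 genes of up to 8000 bases and -0.47 for 2 longer ones. Mad2l1, in the class of up to 8000 bases with Cenpe, was at -0.065. Its longest annotated transcript, of 7557 bases, is longer than its deposited gene span (chromosome 6, 66535221 to 66541107). That length may therefore not be the length of the transcript measured, and the class median includes it. Among replication genes Pola1, with 5346 bases, was lowest at -0.32, and Rrm1, the longest with 5475 bases, was at -0.021.

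Over all genes tested the correlation was weak, and the class of longest transcripts had the lowest median. In Isl1cKO replicate 2 the median deviation from the other 3 libraries was -0.031 for 3209 genes of up to 2000 bases, -0.034 for the next 5378 genes of up to 4000 bases, -0.091 for 3163 of up to 6000 bases, -0.17 for 1153 of up to 8000 bases and -0.31 for 781 longer ones. In the other 3 libraries the median for the longest class was 0.13, 0.075 and 0.078. Each of these is taken against a mean that includes Isl1cKO replicate 2, so they are not independent of its low value. After a correction of each library for transcript length and GC content, chosen after seeing the data, the differences of Cenpf, Mki67, Top2a and Cenpe were -0.067, -0.046, -0.045 and 0.018. The correction takes out a trend with length by construction, so smaller values for long transcripts were built in. The part of RNA quality or library preparation in these values was not tested.

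**Figure D3:**
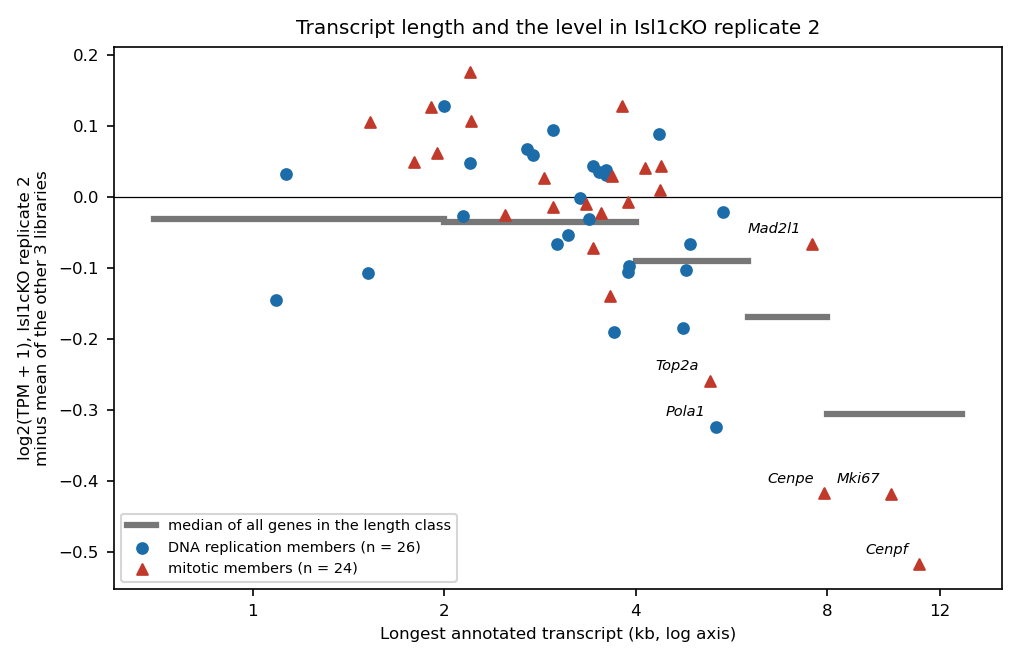
Level in Isl1cKO replicate 2 minus the mean of the other 3 libraries (vertical axis, log2(TPM + 1)) against the longest annotated transcript (horizontal log axis, kb) for the 26 replication genes (circles) and 24 mitotic genes (triangles). Grey bars are medians of all tested genes in 5 length classes, which fall from -0.031 in the shortest class to -0.31 in the longest, and Cenpf, Mki67 and Cenpe lie below -0.4.

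Pola1, the catalytic subunit of the polymerase that starts each new strand, stood at 50.3 and 45.1 TPM in control libraries, against 48.8 and 38.2 TPM in Isl1cKO libraries. It is also X-linked, and Xist, the RNA of the inactive X chromosome, stood at 235, 209 and 287 TPM in the controls and Isl1cKO replicate 1 but at 0.501 TPM in Isl1cKO replicate 2. The part of sex make-up in the Pola1 value was not tested.

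Replicates of the 50 genes lay close together. The median absolute log2 difference between the controls was 0.044 over the 50 genes, beside 0.089 over all genes tested, and between the libraries labelled Isl1cKO it was 0.094, beside 0.14. The largest was 0.23 between controls and 0.52 between the libraries labelled Isl1cKO.

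Further genes of the same processes were counted from lists written with earlier results of these data known. Of 48 other replication and S-phase genes, 0 passed the threshold in limma in either direction, against 0.493% of all genes tested, and 0 had an unadjusted p-value under 0.05, against 12.1%. Their median difference was -0.070, beside -0.048 over all genes, and 39 of 48 estimates were below 0, beside 63.8% of all genes. Under median-ratio scaling the median was -0.015 and 26 of 48 estimates were below 0, beside 48.5% of all genes. The smallest p-values were those of Rpa3, Gins4 and Rfc3, with differences of -0.17, -0.16 and -0.14 and adjusted p-values of 0.509 to 0.596. The difference of Gins4 was -0.10 without Isl1cKO replicate 2, and that of Rfc3 was -0.090 without control replicate 1. Rpa3, a subunit of the single-strand binding protein, stood at 143 and 139 TPM in control libraries, against 129 and 122 TPM in Isl1cKO libraries, so its groups did not overlap. Gins4 is a further subunit of GINS, and Rfc3 belongs to the complex that loads PCNA.

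Of 48 other mitotic genes, 0 passed in either direction, against 0.493% of all genes tested. At an unadjusted p-value under 0.05 in limma there were 0, against 12.1%. Their median was -0.051, beside -0.048 over all genes, and 41 of 48 estimates were below 0, beside 63.8% of all genes. Under median-ratio scaling the median was 0.0055 and 23 of 48 estimates were below 0, beside 48.5% of all genes. Pttg1 (chromosome 11, 43420244 to 43426251), which encodes securin, the guard of sister chromatid cohesion, had the smallest p-value. It stood at 34.0 and 39.3 TPM in control libraries, against 66.9 and 44.3 TPM in Isl1cKO libraries, a log2 difference of 0.56 (SE 0.22, 95% interval -0.025 to 1.15, adjusted p-value 0.431). Both libraries labelled Isl1cKO lay above both controls, and the estimate ranged from 0.27, with Isl1cKO replicate 1 left out, to 0.85, with Isl1cKO replicate 2 left out. Racgap1, Mad1l1 and Cenpi followed, with differences of -0.15, -0.14 and -0.19 and adjusted p-values of 0.571 to 0.610. The Cenpi difference was -0.065 without Isl1cKO replicate 2 and -0.31 without replicate 1, and the gene is X-linked, as Pola1 is. The long transcripts Knl1 and Aspm, named after their values were seen, showed the same single low library. Knl1 stood at 26.9, 25.0, 26.3 and 17.3 TPM, and Aspm at 48.7, 49.6, 51.8 and 36.0 TPM, in control replicates 1 and 2 and Isl1cKO replicates 1 and 2. In Isl1cKO replicate 2 minus the mean of the other libraries, Knl1 was at -0.56 and Aspm at -0.46. Not all transcripts of over 6000 bases in these further replication and mitotic lists did so. Ticrr, Chaf1a and Espl1 were at 0.053, 0.0091 and -0.052, and Pole, Cit and Brca1 at -0.14, -0.20 and -0.30.

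Genes of cell cycle exit gave no call either. Of 19 such genes 17 were tested, and 0 passed in limma in either direction, against 0.493% of all genes tested. At an unadjusted p-value under 0.05 in limma there were 0, against 12.1%. Their median difference was -0.043, beside -0.048 over all genes. The untested genes were Cdkn2a and Cdkn2b, which were below 1 TPM in every library. Gadd45a, a growth arrest gene that is also in the neurogenic marker list below, stood at 484 and 495 TPM in control libraries, against 583 and 540 TPM in Isl1cKO libraries, a difference of 0.20 (SE 0.085, adjusted p-value 0.472). Cdkn2d, a CDK4 and CDK6 inhibitor, stood at 52.6 and 54.1 TPM in control libraries, against 48.4 and 46.9 TPM in Isl1cKO libraries, a difference of -0.16 (adjusted p-value 0.514). Rbl1, the retinoblastoma relative p107, had a difference of -0.22 (adjusted p-value 0.529), which was -0.10 without Isl1cKO replicate 2 and -0.34 without replicate 1. E2f5, a repressor E2F, had a difference of 0.15 (adjusted p-value 0.585), which was 0.086 without control replicate 1. The CDK inhibitors Cdkn1b and Cdkn1c, which act at cycle exit in the retina, had differences of 0.0069 and -0.082.

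Summed markers of ganglion cells, red blood cells and lens stood lower in both Isl1cKO libraries than in both controls. So did those of photoreceptor precursors, pigment epithelium, periocular mesenchyme and endothelium, the last by a narrow margin. In control replicate 2, the lower control for each, these stood at 88.8%, 92.2%, 84.7% and 87.8% of the control mean. Only 1 of the 4 endothelium markers passed the filter, as did 3 of 6 for periocular mesenchyme and 5 of 6 for pigment epithelium. The sums include the markers below the filter, so the endothelium sum rests mostly on 1 gene. Microglia markers stood higher in both Isl1cKO libraries than in the controls, which were at 102% and 97.6%. The sum of 13 ganglion cell markers stood at 59.9% and 41.1% of the control mean in Isl1cKO replicates 1 and 2, where the controls were at 108% and 92.4%. Of these markers 11 of 13 had estimates below 0, with a median log2 difference of -1.12, and none was at 0 in any library. Irx2 was the 1 called (limma adjusted p-value 0.0249), against 0.493% of all genes tested. Pou4f2 and Isl1 were the markers with estimates above 0. The sum of 8 red blood cell markers stood at 40.1% and 5.73% of the control mean, with Hbb-bs listed at 0 in Isl1cKO replicate 2. Of 8 lens markers 6 were called lower, against 0.465% of all genes tested. The lens sum stood at 2.80% and 1.87%, with Lim2 listed at 0 in both Isl1cKO libraries and Crygb in replicate 1. The sum of 5 photoreceptor precursor markers stood at 78.2% and 53.9%. That of 7 amacrine and horizontal cell markers stood at 119.7% and 82.9%, where the controls were at 107.7% and 92.3%. Microglia, pigment epithelium, periocular mesenchyme and endothelium markers stood at 125%, 91.0%, 79.3% and 87.2% in Isl1cKO replicate 1 and at 151%, 66.6%, 64.3% and 84.5% in replicate 2. The 12 retinal progenitor markers summed to 97.7% and 109%, with a median difference of 0.12 and 7 of 12 estimates above 0, and the 10 neurogenic progenitor markers to 100.2% and 112%. Beside these, the replication genes stood at 96.4% and 98.1% of the control mean and the mitotic genes at 99.3% and 96.7%. In whole tissue, fewer cells of a type and less RNA per cell cannot be told apart. The part of these cell types in the levels of the cell cycle genes was not tested.

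**Figure D4:**
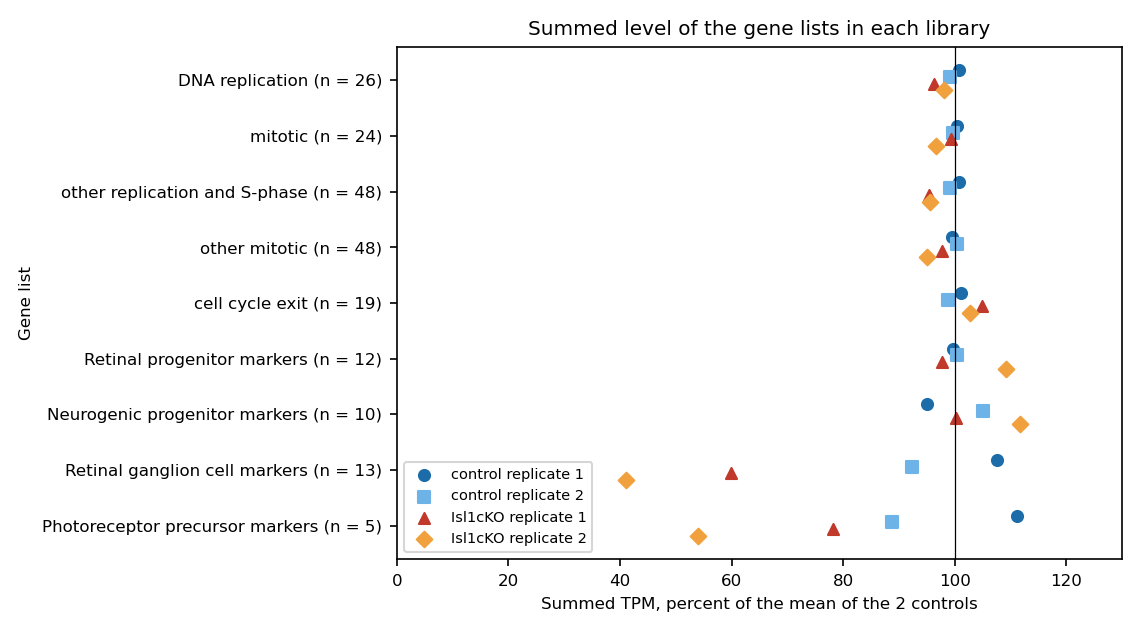
Summed TPM of each gene list in each library (horizontal axis from 0, percent of the mean of the 2 controls), with 1 symbol a library. The replication and mitotic lists lie between 96.4% and 101% in all 4 libraries, and the ganglion cell markers lie at 59.9% and 41.1% in the libraries labelled Isl1cKO.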

How the data were processed

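Poly(A)-selected, strand-specific libraries were made from frozen embryonic retina, per the labels' protocols. Trimmomatic, FastQC, HISAT2, SAMtools and StringTie are named for build mm10 in the submitters' processing notes, without versions, and the annotation is not given in the sources used here. Each library has its own table. Per the file headers it holds mean coverage per base, FPKM and TPM for each gene, and the deposited TPM sum to 1000000 in each library. The deposited TPM were the main values, the deposited FPKM an alternative, and the deposited coverage described depth only. Depth in reads is unknown, and no interval or floor from counts was computed.

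Repeated rows of a gene ID were summed, and no member stood on several rows. The values log2(TPM + 1) of the 13984 genes with at least 1 TPM in at least 2 libraries were fitted with limma 3.58.1 (R 4.3.3) under a constant variance prior, genotype being the sole term. Adjusted p-values are Benjamini-Hochberg over all genes. Fold changes on this scale understate those of low genes. Reads shared with paralogs or pseudogenes could have been divided in ways the tables do not record.

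The members and the gene lists were chosen with earlier results of these data known. All 50 members could be named. Values in every library were given for the MCM ring and, in each list, for the 6 smallest p-values and the 4 largest absolute differences, and 4 genes of smallest p were named in each further list, except 1 that is not reported here. Other genes were named after their values were seen. Alternatives were another pseudocount, filter, scaling, unit or prior, a replicate block, leaving out repeated genes or each library, and, chosen after seeing the data, a loess correction on the length and GC content of the longest GENCODE M21 transcript, found for 97.9% of tested genes. Motif letters were searched in RefSeq promoter windows of GRCm38.p6.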

Additional observations from a re-analysis of the deposited data

How the results depend on the processing

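The count of 0 of 50 cell cycle genes called held under each of 15 alternatives, leave-one-out included, and the smallest adjusted p-value of any of them in limma was 0.1002, for Cenpf without Isl1cKO replicate 1. In that comparison Cenpe, Cenpf, Mki67 and Top2a had an unadjusted p-value under 0.05. With 2 libraries a group and no counts, small differences could not be resolved, and with a library left out the lone library is assumed to vary like the other group. The cause of a change under an alternative was not tested, except that a filter changes the number of genes tested by construction.

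Over all genes, the 69 calls became 15 with no filter beyond a value above 0, 44 at a pseudocount of 0.1, 110 with a mean-variance trend and 127 with FPKM, and 10 to 37 as each replicate was left out, fewest without control replicate 1. The replicate numbers were checked for pairing: deviations of the libraries numbered 1 correlated at 0.126 across genes. The labels name no shared litter or day, so whether libraries of the same number are paired is not known. A fit with the replicate block called 265 genes (1.90% of those tested), and 264 with the replicate block and the length and GC correction, none of them among the 50.

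The replication median of -0.041 was 0.0089 with FPKM, 0.015 under median-ratio scaling, -0.0099 under quantile normalization, -0.014 after correction for length and GC content (alike in fits with and without the replicate block), and -0.078 to -0.037 across left-out replicates. The mitotic median of -0.00032 was 0.049, 0.056, 0.034 and 0.037 under the same settings, and -0.025 to 0.0017 across left-out replicates. Estimates near 0 changed sign. With FPKM, Mcm2, Mcm3, Mcm4 and Mcm6 were 0.011, 0.021, 0.012 and 0.042, and under median-ratio scaling 0.017, 0.027, 0.018 and 0.049. After that correction, in both fits, they were 0.00025, 0.0089, 0.0092 and 0.052, and Cenpe was 0.018. Under quantile normalization Mcm2, Mcm3 and Mcm6 were 0.012, 0.015 and 0.015. Across left-out replicates Mcm2 ranged from -0.094 to 0.015, Mcm3 from -0.077 to 0.019, Mcm4 from -0.079 to 0.0041, Mcm6 from -0.079 to 0.063, Cenpe from -0.38 to 0.12, Cenpf from -0.52 to 0.0055, Mki67 from -0.42 to 0.00016 and Top2a from -0.26 to 0.0033. Of the 450 values of the 30 genes with a fold change under alternatives, 0 passed the threshold.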
